A study of Mus musculus with 33 samples.

Results

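The 7 genes described here encode the glucose-6-phosphatase system and the enzymes that are particular to gluconeogenesis. They are G6pc, G6pc3, Slc37a4, Pck1, Pck2, Fbp1 and Pcx, chosen by name for their place in the pathway and not by a threshold on a measured value, although earlier results of these data were known, and they are 7 of 25988 genes counted in mouse liver. After the filter on low counts 6 of the 7 were tested, among 10179 genes in all. G6pc3 did not pass that filter and is given as counts only.

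Livers of nonfasted male C57BL/6J mice, with an age of 13 to 18 weeks in the labels, which the study's methods give as the age at injection of the virus, were profiled 10 days after the last of 5 daily tamoxifen injections by sequencing of the 3′ ends of mRNA (QuantSeq), in 33 libraries and 4 groups. The shChREBP/L-G6pc-/- group (9 libraries) carried floxed G6pc alleles, a tamoxifen-inducible Cre recombinase expressed from the serum albumin locus, and an adeno-associated virus with a short hairpin RNA against ChREBP. The shSCR/L-G6pc-/- group (8 libraries) had the same alleles with a scrambled hairpin. The shChREBP/L-G6pc+/+ and shSCR/L-G6pc+/+ groups (8 libraries each) carried the floxed alleles without Cre and received the matching virus. Both genotypes were given virus and tamoxifen, so these exposures were shared by all 4 groups, whereas Cre was present only in L-G6pc-/- livers. Recombination was restricted to hepatocytes, and therefore L-G6pc-/- mice still had G6pc in other cells and in kidney and intestine. The labels do not state that every library came from a different mouse, so n counts libraries and p-values measure the spread between these libraries.

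Gluconeogenesis makes glucose from lactate, amino acids and glycerol. Pyruvate carboxylase (Pcx) and phosphoenolpyruvate carboxykinase (Pck1 in the cytosol, Pck2 in mitochondria) bypass pyruvate kinase, and fructose-1,6-bisphosphatase (Fbp1) bypasses phosphofructokinase. Slc37a4 carries glucose-6-phosphate into the endoplasmic reticulum, where G6pc hydrolyses it to free glucose, while G6pc3 is a widely expressed phosphatase of the same family. Loss of G6pc in the liver causes hepatic glycogen storage disease type Ia, in which glucose-6-phosphate accumulates, and ChREBP (gene Mlxipl) is the transcription factor that answers to glucose-6-phosphate and other sugar phosphates and drives glycolytic and lipogenic genes.

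The bases before the start sites of the genes on which the results turn are shown to give the regulatory sequence beside the RNA level, with the window of Pklr, the liver pyruvate kinase gene and a classical ChREBP target, for comparison. Sequences are from RefSeq on GRCm38.p6, 5′ to 3′ on the strand of the gene, from the window of 250 bases before the start site, without bases that GENCODE M21 places in an exon. Capitals mark matches on either strand to the E-box CACGTG, the carbohydrate response element (ChoRE; CACG, then any 9 bases, then CGTG), the cAMP response element (CRE) TGACGTNA and the forkhead core TGTTT.
Fbp1, chr13:62888283-62888532, minus strand: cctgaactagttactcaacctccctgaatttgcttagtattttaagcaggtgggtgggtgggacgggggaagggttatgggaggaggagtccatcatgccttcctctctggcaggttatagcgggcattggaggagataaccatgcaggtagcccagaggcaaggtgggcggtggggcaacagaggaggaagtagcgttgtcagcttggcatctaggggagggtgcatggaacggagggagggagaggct
Pcx, chr19:4510222-4510471, plus strand: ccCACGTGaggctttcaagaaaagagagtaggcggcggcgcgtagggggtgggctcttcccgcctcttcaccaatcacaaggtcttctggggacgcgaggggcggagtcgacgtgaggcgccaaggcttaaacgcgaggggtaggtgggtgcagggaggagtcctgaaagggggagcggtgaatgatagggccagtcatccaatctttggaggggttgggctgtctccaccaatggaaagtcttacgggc
Slc37a4, chr9:44396696-44396851, plus strand: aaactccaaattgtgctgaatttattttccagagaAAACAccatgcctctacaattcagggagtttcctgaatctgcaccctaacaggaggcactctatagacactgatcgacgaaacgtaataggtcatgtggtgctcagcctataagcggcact
Pck1, chr2:173152823-173153047, plus strand: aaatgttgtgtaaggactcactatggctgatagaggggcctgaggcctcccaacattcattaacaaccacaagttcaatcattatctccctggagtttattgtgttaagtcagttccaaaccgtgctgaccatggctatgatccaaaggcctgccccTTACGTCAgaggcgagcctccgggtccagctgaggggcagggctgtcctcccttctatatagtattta
G6pc, chr11:101367466-101367560, plus strand: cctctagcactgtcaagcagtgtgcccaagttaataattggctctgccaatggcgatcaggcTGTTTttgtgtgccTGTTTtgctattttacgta
Pklr, chr3:89136373-89136571, plus strand: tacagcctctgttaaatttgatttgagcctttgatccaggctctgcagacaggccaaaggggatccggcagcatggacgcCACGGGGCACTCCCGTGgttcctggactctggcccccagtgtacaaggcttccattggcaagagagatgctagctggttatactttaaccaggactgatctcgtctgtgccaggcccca

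All 7 genes had at least 1 window in the RefSeq table, and Slc37a4 had 3 and Pcx 2. The full 250-base window of Fbp1 held none of the 4 motifs. The 3 windows of Slc37a4 held no E-box, ChoRE or CRE, and those at the first and the last of its start sites held 1 forkhead core each. Pck1 had a CRE at -93 to -86 from its start site, and G6pc had 4 forkhead cores, at -188, -174, -141 and -25. The stretch printed for G6pc is -250 to -156 from the RefSeq start, so it shows 2 of the 4, since GENCODE starts the gene upstream of RefSeq. E-boxes were found in the windows of G6pc3 (at -99 and -79) and of the first start site of Pcx (at -248), whereas the ChoRE in this set occurred only upstream of the second start site of Pklr, at -170 to -154. Of 32851 windows of the same length, 6.02% held an E-box, 0.22% a ChoRE, 2.52% a CRE and 46.4% a forkhead core. These matches describe letters in a window and are not evidence of a bound site.

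**Figure D1:**
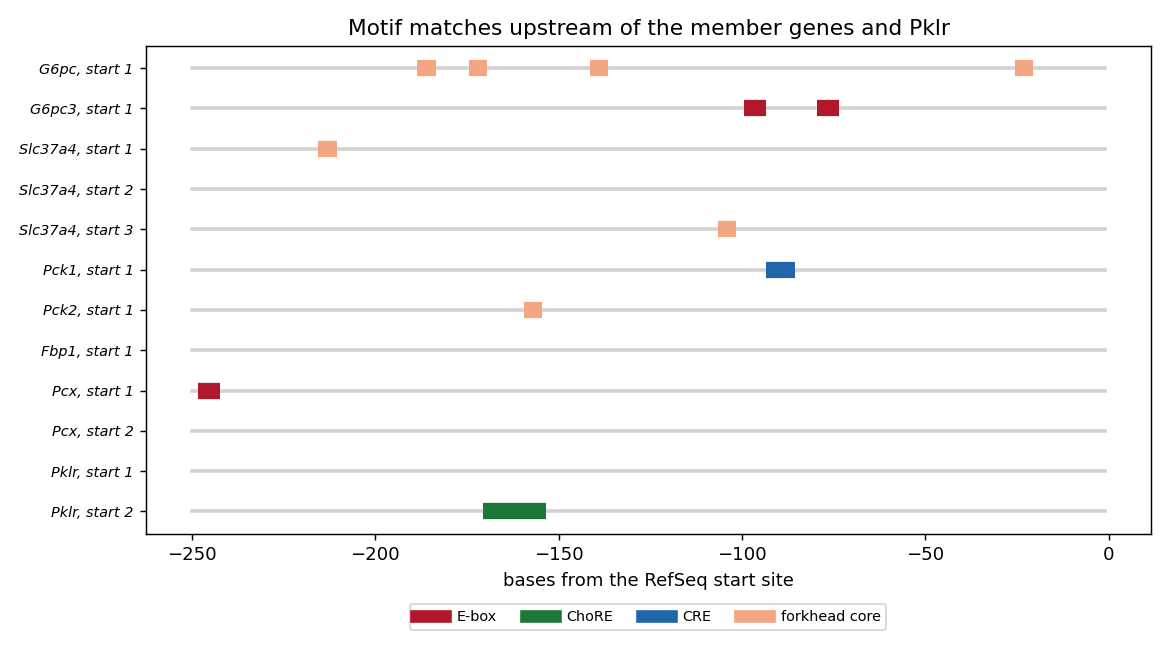
Positions of motif matches on either strand in the 250 bases before each RefSeq start site of the 7 member genes and of Pklr; the x axis gives bases from the start site and each grey line is 1 window. The single ChoRE lies upstream of the second start site of Pklr, and the 4 forkhead cores of G6pc are spread over its window.

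Counts per library ran from 1497843 to 3546852 with a median of 2141043, and were scaled with TMM factors to counts per 1000000 (CPM). In the same fit as the members, Mlxipl was lower with shChREBP in both genotypes, by a log2 fold change of -0.57 ± 0.13 (SE) in L-G6pc-/- and -0.55 ± 0.13 in L-G6pc+/+ livers (adjusted p = 0.00417 and 0.0129). Libraries s29, s30, s32 and s33, all shChREBP/L-G6pc-/-, stood apart on the first principal component, which held 14.7% of the variance. They lay at 26.8 to 35.6, against -1.47 to 7.7 for the other 5 libraries of their group, and Mlxipl was lower in them (216 to 359 CPM, against 441 to 500 CPM). Without these 4 libraries the fall of Mlxipl in L-G6pc-/- livers did not pass (log2 fold change -0.27, adjusted p = 0.214), whereas in L-G6pc+/+ livers it was -0.55 (adjusted p = 0.000225). Other calls lost without them are given beside the members and, for the lists, together at the end of the lists. The 4 libraries were picked from the expression values of these same data. Fits without them describe how far a result depends on these libraries and are not separate tests. Scaling by library size alone, in place of TMM, moved the median log2 fold change of all genes for shChREBP in L-G6pc-/- livers to 0.11, against 0.01 with TMM, and turned 339 higher and 431 lower genes into 848 higher and 271 lower. It gave 904 higher and 318 lower for genotype under shChREBP, against 625 and 499 with TMM, 965 and 450 for shChREBP/L-G6pc-/- over shSCR/L-G6pc+/+, against 699 and 648, and 198 and 146 for genotype under shSCR, against 224 and 105.

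Defining markers of hepatocytes were high in all groups. The summed level of 8 hepatocyte genes was 12490 to 24230 CPM in shChREBP/L-G6pc-/-, 18980 to 27380 in shSCR/L-G6pc-/-, 23140 to 35960 in shChREBP/L-G6pc+/+ and 28380 to 33550 CPM in shSCR/L-G6pc+/+ livers. Its medians were 18110, 23780, 26740 and 31470 CPM in that order. The median of this sum was thus lower in L-G6pc-/- livers under both hairpins and lower with shChREBP in both genotypes. Alb had the highest median of the 8 genes, 9118 CPM over all libraries, and so weighs most in the sum. Taken gene by gene, the median log2 fold change of the 8 was -0.20 for genotype under shSCR and -0.41 under shChREBP. With shChREBP it was -0.28 in L-G6pc-/- and -0.13 in L-G6pc+/+ livers. The counts of markers that follow stand beside shares over all genes of 3.23% and 11% for genotype under shSCR and shChREBP. The shares were 7.56% and 5.39% for shChREBP in L-G6pc-/- and L-G6pc+/+ livers, and 13.2% for shChREBP/L-G6pc-/- over shSCR/L-G6pc+/+. None of the 8 hepatocyte genes passed for shChREBP in L-G6pc+/+ livers. Alb, the albumin gene, was the only one of the 8 to pass between genotypes under shSCR (log2 fold change -0.79, adjusted p = 3.68e-05), and Alb and Cyp2e1 were lower under shChREBP. Cre was expressed from the serum albumin locus, in L-G6pc-/- livers only. For Alb, the G6pc deletion and the Cre allele therefore cannot be told apart between genotypes. Between shChREBP/L-G6pc-/- and shSCR/L-G6pc+/+ livers 5 of the 8 were lower (Alb, Apoa1, Cyp2e1, Serpina1c and Ttr), and Cd5l and Clec4f of the Kupffer list and Spp1 of the cholangiocyte list were higher. Markers of Kupffer cells summed to 1226 to 2051, 825 to 2132, 763 to 2396 and 848 to 1540 CPM in the same order of groups, and none of the 8 passed between genotypes under either hairpin. Of the periportal hepatocyte markers, Cyp2f2, a cytochrome P450 gene, was higher with genotype under shSCR. Of 6 pericentral markers none passed under shSCR, and 3 were lower with genotype under shChREBP. Among tested markers of stellate cells, sinusoidal endothelial cells, cholangiocytes, lymphocytes and neutrophils, and red cell precursors, none passed with genotype under shSCR, and 1, Col1a1 of the stellate list, was higher under shChREBP. Only 2 of 5 cholangiocyte and 2 of 6 lymphocyte and neutrophil markers were tested after the filter on low counts. The lymphocyte genes Cd3e, Cd79a, Ms4a1 and Nkg7, with medians of 0 to 1.06 CPM over all libraries, were not tested. Of 3 counted markers of kidney and intestine only 1 was tested, Fabp2, an intestinal fatty acid-binding protein gene. It was higher with genotype under both hairpins, whereas Umod and Vil1 reached at most 0.46 and 1.15 CPM in any library. With shChREBP in L-G6pc-/- livers, Alb, Fgb and Ttr of the hepatocyte list and Cyp2f2 were lower, and Clec4f of the Kupffer list and Pecam1 of the endothelial list were higher. Without s29, s30, s32 and s33 none of these 6 passed for shChREBP in L-G6pc-/- livers, Col1a1 and Cyp2e1 did not pass for genotype under shChREBP, and of the markers just named for shChREBP/L-G6pc-/- over shSCR/L-G6pc+/+ only Alb passed. In bulk liver, fewer cells of a type and less RNA per cell cannot be told apart, and the part of these shifts in the results was not tested.

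Counted over the members, 2 of 6 passed between genotypes under shSCR (Fbp1 and Pcx, both higher), beside 3.23% of all genes tested (2.20% higher and 1.03% lower). Under shChREBP 1 of 6 passed (Fbp1, higher), beside 11% (6.14% higher and 4.90% lower). For shChREBP over shSCR, 2 of 6 passed in L-G6pc-/- livers (Slc37a4 and Fbp1, both lower), beside 7.56% (3.33% higher and 4.23% lower), and 1 of 6 passed in L-G6pc+/+ livers (Slc37a4, lower), beside 5.39% (2.16% higher and 3.23% lower). For shChREBP/L-G6pc-/- over shSCR/L-G6pc+/+ livers 1 of 6 passed (Fbp1, higher), beside 13.2% (6.87% higher and 6.37% lower).

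The median log2 fold change of the 6 members was 0.49 for genotype under shSCR and 0.41 under shChREBP, against 0.00 and -0.01 over all genes tested. It was -0.34 for shChREBP in L-G6pc-/- and -0.20 in L-G6pc+/+ livers, against 0.01 and 0.03 over all genes. The comparisons share groups, so these medians are not independent of each other.

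Fbp1 was the member that changed most with genotype. In shSCR/L-G6pc-/- livers it ranged between 622 and 702 CPM with a median of 662 CPM, against 298 to 478 CPM with a median of 322 CPM in shSCR/L-G6pc+/+ livers. Every L-G6pc-/- library was above every L-G6pc+/+ library under shSCR. The gene is on the minus strand of chromosome 13, at chr13:62864753-62888282 on GRCm38, and its enzyme removes the phosphate that commits fructose-1,6-bisphosphate to glycolysis. The level was 1.94-fold higher in shSCR/L-G6pc-/- livers (log2 fold change 0.96 ± 0.10, 95% confidence interval 0.75 to 1.17, adjusted p = 5.34e-08). Library s6 was the highest of the shSCR/L-G6pc+/+ group at 478 CPM, with the next at 366 CPM.

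Fbp1 was also higher with the G6pc deletion under ChREBP knockdown. It lay between 429 and 614 CPM with a median of 511 CPM in shChREBP/L-G6pc-/- livers, against 213 to 397 CPM with a median of 309 CPM in shChREBP/L-G6pc+/+ livers, again without overlap. The log2 fold change was 0.73 ± 0.10 (interval 0.53 to 0.94, adjusted p = 6.85e-06). Within L-G6pc-/- livers the groups with shChREBP and shSCR did not overlap either, since the highest value of the first was 614 CPM and the lowest of the second 622 CPM. The fold change there was -0.34 ± 0.10 (interval -0.54 to -0.14, adjusted p = 0.0285). This smaller difference was sensitive to the libraries: the adjusted p was 0.0519 without s18, 0.0504 without s23, 0.066 without s30, and 0.269 without s29, s30, s32 and s33, where the log2 fold change was -0.30. It was 0.118 with scaling by library size (log2 fold change -0.23) and 0.102 with no filter on low counts.

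In L-G6pc+/+ livers Fbp1 did not pass for shChREBP (log2 fold change -0.11, interval -0.32 to 0.10, adjusted p = 0.56). From high to low, its mean level was ordered as shSCR/L-G6pc-/- (662 ± 28.8 CPM), shChREBP/L-G6pc-/- (524 ± 55.6), shSCR/L-G6pc+/+ (341 ± 59.6) and shChREBP/L-G6pc+/+ (315 ± 56.5 CPM, SD). The last neighbours in this order did not differ beyond their spread. shChREBP/L-G6pc-/- livers remained above shSCR/L-G6pc+/+ livers, by a log2 fold change of 0.62 ± 0.10 (adjusted p = 4.35e-05), with 1 library of shSCR/L-G6pc+/+, s6, inside the range of shChREBP/L-G6pc-/-.

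**Figure D2:**
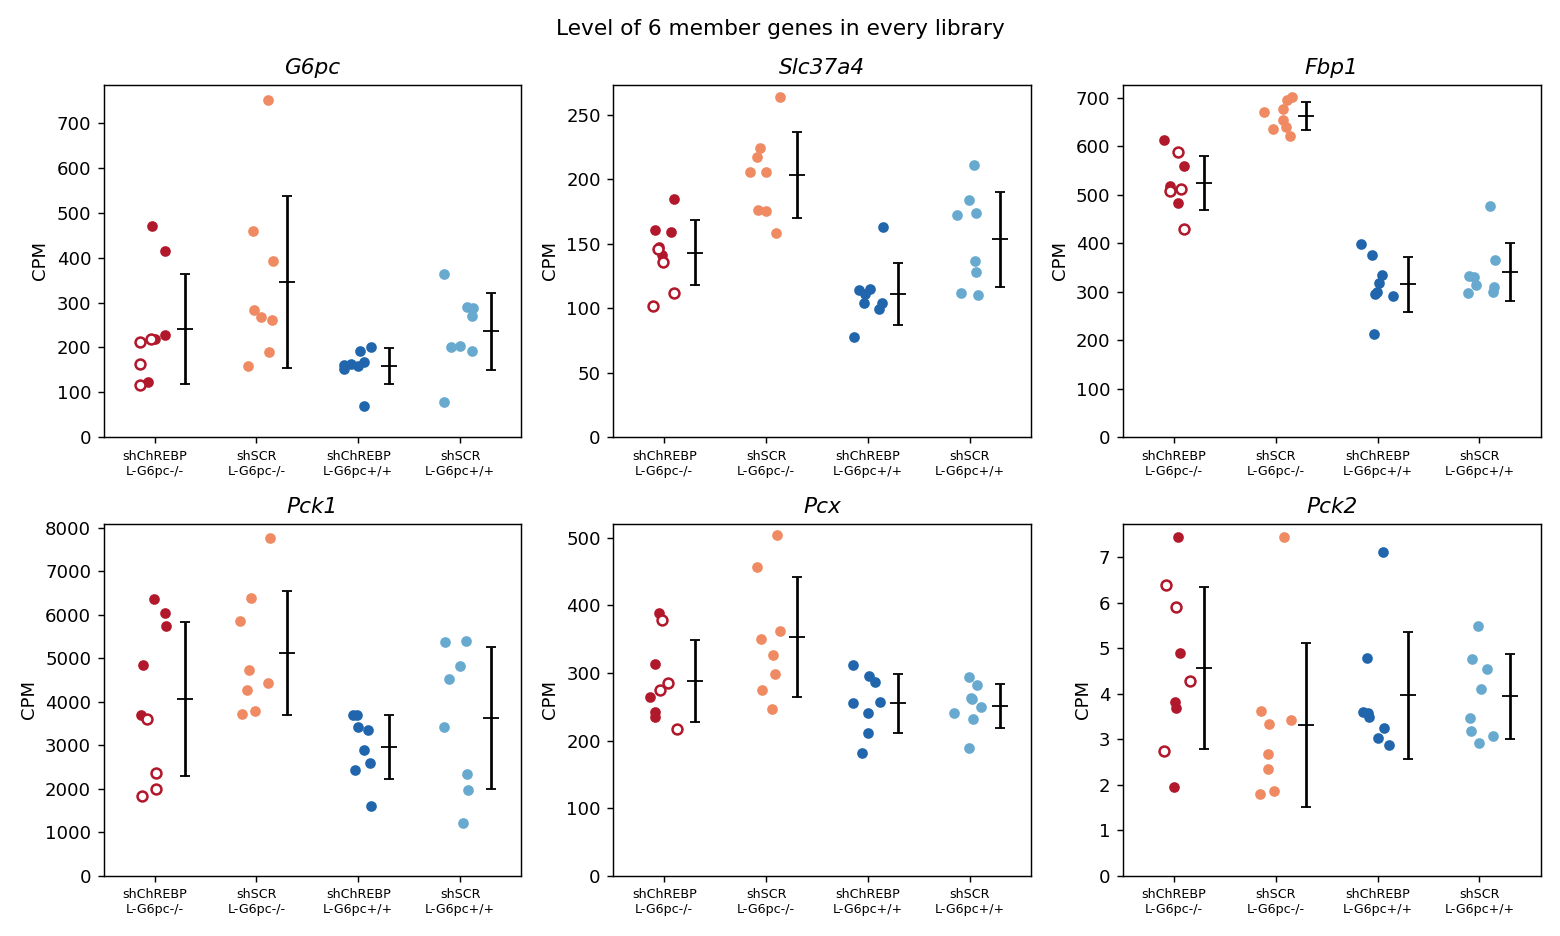
Level in CPM (y axis, from 0) of 6 member genes in each of 33 libraries, by group; points are libraries, open points are s29, s30, s32 and s33, and the bar beside each group is the mean ± SD. The Fbp1 panel shows both L-G6pc-/- groups at or above 429 CPM, with 1 L-G6pc+/+ library, at 478 CPM, inside that range. The groups compared overlap for G6pc, Slc37a4, Pck1, Pcx and Pck2.

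Slc37a4, the glucose-6-phosphate translocase, was the member that fell with ChREBP knockdown in both genotypes. It lies at chr9:44396852-44402968 on the plus strand. In L-G6pc-/- livers its level was 102 to 185 CPM with a median of 146 CPM under shChREBP, against 159 to 264 CPM with a median of 206 CPM under shSCR, and only the highest values of the first group reached the range of the second. The log2 fold change was -0.51 ± 0.13 (interval -0.78 to -0.23, adjusted p = 0.0143). Without s29, s30, s32 and s33, which held 102 to 146 CPM against 141 to 185 CPM in the other 5, it was -0.35 with an adjusted p of 0.337.

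In L-G6pc+/+ livers Slc37a4 was at 77.6 to 163 CPM with a median of 108 CPM under shChREBP, against 110 to 212 CPM with a median of 155 CPM under shSCR. These groups overlapped, and library s12 was the highest of the shChREBP group at 163 CPM, with the next at 115 CPM. The log2 fold change was -0.47 ± 0.14 (interval -0.75 to -0.18, adjusted p = 0.0428), close to the threshold. Leaving out any 1 of 12 libraries (s2, s3, s4, s6, s7, s9, s10, s11, s13, s14, s15 or s16) put the adjusted p between 0.0564 and 0.108, with a log2 fold change of -0.49 to -0.39, and a fit of these 2 groups alone gave 0.0579. Without s9 and s13 the adjusted p was 0.119.

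With genotype, Slc37a4 had log2 fold changes of 0.41 ± 0.14 under shSCR (interval 0.13 to 0.69, adjusted p = 0.105) and 0.37 ± 0.14 under shChREBP (interval 0.09 to 0.64, adjusted p = 0.0739), so that neither passed. Without s6 the value under shSCR was 0.49 with an adjusted p of 0.0427, and under shChREBP it passed without s12, s30 or s33 (adjusted p = 0.0213 to 0.0498) and without s29, s30, s32 and s33 together (0.52, adjusted p = 0.029). The mean was 203 ± 33.6 CPM in shSCR/L-G6pc-/-, 154 ± 37 in shSCR/L-G6pc+/+, 143 ± 25.1 in shChREBP/L-G6pc-/- and 111 ± 24.2 CPM in shChREBP/L-G6pc+/+ livers. The neighbours shChREBP/L-G6pc-/- and shSCR/L-G6pc+/+ overlapped, with a log2 fold change of -0.10 (interval -0.37 to 0.17, adjusted p = 0.71).

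G6pc, the catalytic subunit that the study deleted, was counted at the 3′ end of its transcript, so its counts do not measure the deletion and are no check of the genotype labels. The gene has 5 exons at chr11:101367561-101377903 on the plus strand, and the last exon makes up 1616 of the 2414 bases of its transcript. Its level was 117 to 470.5 CPM with a median of 218 CPM in shChREBP/L-G6pc-/-, 158 to 752 CPM with a median of 276 CPM in shSCR/L-G6pc-/-, 69.1 to 201 CPM with a median of 162 CPM in shChREBP/L-G6pc+/+ and 78.7 to 364 CPM with a median of 236 CPM in shSCR/L-G6pc+/+ livers. All groups overlapped, and the coefficient of variation reached 55.4% in shSCR/L-G6pc-/- and 50.9% in shChREBP/L-G6pc-/- livers, against 25.2% and 36.6% in shChREBP/L-G6pc+/+ and shSCR/L-G6pc+/+ livers.

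No comparison of G6pc passed. The log2 fold changes with genotype were 0.56 ± 0.29 under shSCR and 0.61 ± 0.28 under shChREBP (adjusted p = 0.368 and 0.165), and those with shChREBP were -0.52 ± 0.28 in L-G6pc-/- and -0.58 ± 0.29 in L-G6pc+/+ livers (adjusted p = 0.261 and 0.243). The 95% intervals were -0.02 to 1.14 and 0.04 to 1.18 for genotype, and -1.09 to 0.04 and -1.16 to 0.01 for shChREBP. They lay above 0 only for genotype under shChREBP, where the unadjusted p was 0.0382. Libraries s23 and s24 of shSCR/L-G6pc-/- were high at 752 and 460 CPM, and s31 and s26 of shChREBP/L-G6pc-/- at 470.5 and 414 CPM.

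G6pc3 gave 247 counts over the 33 libraries, 1 to 18 in each, at chr11:102189620-102194081. The total counts were 76 in shChREBP/L-G6pc-/-, 58 in shSCR/L-G6pc-/-, 53 in shChREBP/L-G6pc+/+ and 60 in shSCR/L-G6pc+/+ livers. The mean level was 3.50 ± 0.98, 3.62 ± 0.83, 3.25 ± 1.90 and 3.07 ± 1.63 CPM (SD) in the same order. These groups were not compared with a test.

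Pck1, the cytosolic carboxykinase and a classical target of glucagon and cAMP, varied widely within each group. It lies at chr2:173153048-173159273. Its level was 1840 to 6361 CPM with a median of 3699 CPM in shChREBP/L-G6pc-/-, 3709 to 7769 CPM with a median of 4585 CPM in shSCR/L-G6pc-/-, 1606 to 3708 CPM with a median of 3126 CPM in shChREBP/L-G6pc+/+ and 1205 to 5395 CPM with a median of 3972 CPM in shSCR/L-G6pc+/+ livers. Under shChREBP the L-G6pc-/- group split into s29, s30, s32 and s33 at 1840 to 3598 CPM and the other 5 libraries at 3699 to 6361 CPM. The log2 fold change with genotype was 0.50 ± 0.26 under shSCR and 0.45 ± 0.26 under shChREBP (adjusted p = 0.383 and 0.269). Without these 4 libraries the value under shChREBP was 0.86 with an adjusted p of 0.0323, and the value for shChREBP in L-G6pc-/- livers was 0.07, against -0.34 ± 0.25 with all libraries (adjusted p = 0.468). The 4 libraries were the lowest of their group for Pck1, so leaving them out raises both values. The adjusted p of 0.0323 is therefore not a separate test.

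Pcx, the mitochondrial enzyme that makes oxaloacetate from pyruvate, was higher with genotype under shSCR. It lies at chr19:4510472-4621752 and hosts Lrfn4 on the other strand without exon overlap. Its level was 247 to 505 CPM with a median of 339 CPM in shSCR/L-G6pc-/- livers, against 189 to 294 CPM with a median of 255 CPM in shSCR/L-G6pc+/+ livers, so that the groups overlapped at 247 to 294 CPM. The log2 fold change was 0.49 ± 0.14 (interval 0.21 to 0.77, adjusted p = 0.034). Leaving out any 1 of s3, s4, s6, s7, s22, s23 or s24 put the adjusted p between 0.0505 and 0.105 (log2 fold change 0.40 to 0.49), and it was 0.0506 with no filter on low counts and 0.0518 with limma on the deposited values. Under shChREBP Pcx was 217 to 388 CPM with a median of 275 CPM in L-G6pc-/-, against 182 to 312 CPM with a median of 257 CPM in L-G6pc+/+ livers (log2 fold change 0.18, interval -0.09 to 0.45, adjusted p = 0.431).

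Pck2, the mitochondrial carboxykinase, was at the lower limit of what was tested, with 294 counts in all and 3 to 22 per library. It lies at chr14:55540266-55551242 and shares exon bases with the antisense gene Gm10876, which does not cover its 3′ end and is not among the genes counted. The strand setting of the counting is not given in the sources used here. Its mean was 4.56 ± 1.77 CPM in shChREBP/L-G6pc-/-, 3.31 ± 1.81 in shSCR/L-G6pc-/-, 3.96 ± 1.39 in shChREBP/L-G6pc+/+ and 3.94 ± 0.93 CPM in shSCR/L-G6pc+/+ livers. None of its comparisons passed. The interval was -0.79 to 0.34 for genotype under shSCR and -0.33 to 1.21 for the interaction.

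Whether shChREBP acted differently in the 2 genotypes was tested as an interaction in the same fit with edgeR. None of the 6 members passed, beside 0.0786% of all genes, and none had an unadjusted p under 0.05. The same count of 0 was found with DESeq2 and with limma. The log2 differences, L-G6pc-/- minus L-G6pc+/+, were -0.22 ± 0.14 for Fbp1 (interval -0.51 to 0.07), -0.31 ± 0.19 for Pcx (-0.70 to 0.07), -0.04 ± 0.19 for Slc37a4 (-0.43 to 0.35) and 0.05 ± 0.40 for G6pc (-0.76 to 0.86). The fall of Fbp1 in L-G6pc-/- livers is therefore not shown to differ from its change in L-G6pc+/+ livers.

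**Figure D3:**
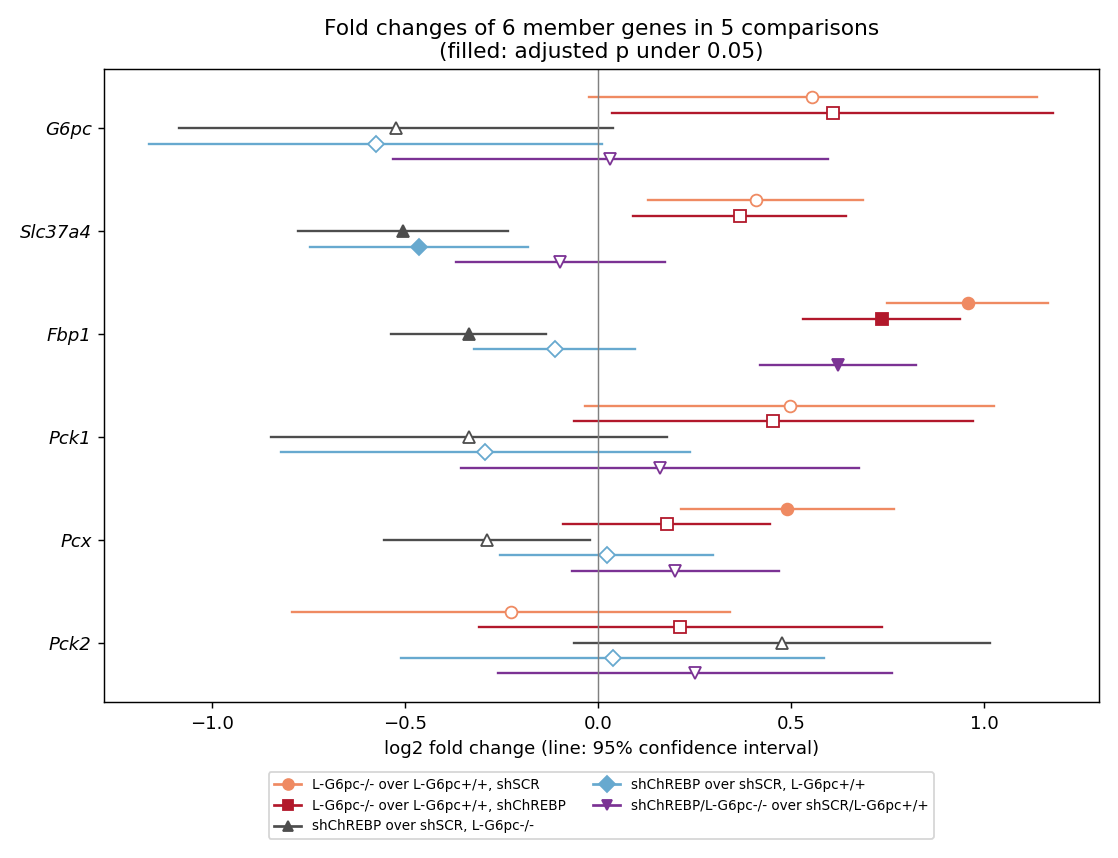
Log2 fold change (x axis, points) with its 95% confidence interval (lines) of 6 member genes in 5 comparisons of groups; filled points have an adjusted p under 0.05. Fbp1 is filled at 0.96 and 0.73 for genotype, Slc37a4 is filled at -0.51 and -0.47 for shChREBP, and the intervals of G6pc, Pck1 and Pck2 are wide.

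The enzymes around the members were described from lists, and their counts stand beside shares over all genes of 3.23% and 11% for genotype under shSCR and shChREBP, and of 7.56% and 5.39% for shChREBP in L-G6pc-/- and L-G6pc+/+ livers. Slc2a2, the glucose transporter of hepatocytes, was higher with genotype under shSCR (log2 fold change 0.56, adjusted p = 0.00989), and it was lower with shChREBP in L-G6pc-/- livers (-0.41, adjusted p = 0.0456).

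Gpi1, glucose-6-phosphate isomerase, a reversible enzyme that gluconeogenesis shares with glycolysis, rose with genotype under both hairpins. It had log2 fold changes of 1.79 under shSCR (adjusted p = 4.36e-13) and 1.27 under shChREBP (adjusted p = 5.52e-09). With shChREBP it fell in L-G6pc-/- livers, by 0.70 on the log2 scale (adjusted p = 0.000125).

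Of 11 tested genes of the opposing glycolytic steps and their switches, Pklr and Pdha1, a subunit of pyruvate dehydrogenase, rose with genotype under shSCR (log2 fold change 1.35 and 0.32, adjusted p = 8.68e-07 and 0.0275). Under shChREBP only Pklr passed, at 1.60 (adjusted p = 3.62e-08). With shChREBP in L-G6pc-/- livers 4 fell and none rose: Pdk1, a kinase that inhibits pyruvate dehydrogenase, at -1.06, Pdha1 at -0.35, the phosphofructokinase gene Pfkm at -0.93 and Pklr at -0.58 (adjusted p = 3.37e-05, 0.00676, 0.0107 and 0.0169). In L-G6pc+/+ livers Pdk1 and Pklr fell (-0.88 and -0.83, adjusted p = 0.00212 and 0.00347). Pklr shares exon bases with Hcn3, a counted gene on the other strand that covers its 3′ end. The part of this overlap in its counts was not tested.

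Of genes for the entry of lactate, alanine, glycerol and redox equivalents, 2 of 29 tested passed with genotype under shSCR, with Gpd1, the cytosolic glycerol-3-phosphate dehydrogenase, higher (0.62, adjusted p = 0.000308) and Gpt, an alanine aminotransferase, lower (-0.66, adjusted p = 0.00222). Under shChREBP 3 were higher and 3 lower. Those with the smallest p were Prodh, which starts proline breakdown (-0.81, adjusted p = 0.000192), Got1, the cytosolic aspartate aminotransferase (1.21, adjusted p = 0.00396), Mdh2, mitochondrial malate dehydrogenase (0.46, adjusted p = 0.00551), and Aqp9, the glycerol channel (-0.38, adjusted p = 0.0232). With shChREBP, Gpd1 and Ldha, a lactate dehydrogenase subunit, fell in L-G6pc-/- livers (-0.62 and -0.54, adjusted p = 0.000185 and 0.00577), and Gpt2, the mitochondrial alanine aminotransferase, fell in L-G6pc+/+ livers (-0.57, adjusted p = 0.0319).

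Of 32 genes of hormonal and transcriptional control, all tested, Ppargc1a and Sik1 rose with genotype under both hairpins. Ppargc1a, a coactivator of gluconeogenic genes, had log2 fold changes of 1.22 under shSCR and 1.22 under shChREBP (adjusted p = 0.0301 and 0.0156). Sik1, a cAMP-induced kinase that restrains the CREB coactivators, had 1.26 and 1.55 (adjusted p = 0.0364 and 0.0026). Under shChREBP 6 others fell, among them Nr3c1, the glucocorticoid receptor (-0.58, adjusted p = 6.23e-05), and the acetyltransferase Ep300 (-0.36, adjusted p = 0.0135). With shChREBP itself 1 gene passed in each genotype, Cebpa in L-G6pc-/- (-0.45, adjusted p = 0.0319) and the insulin-signalling kinase Akt2 in L-G6pc+/+ livers (-0.41, adjusted p = 0.0379), both lower. The list's medians for genotype were -0.04 under shSCR and -0.17 under shChREBP.

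The glucose-sensing list, ChREBP with its partners and known targets, had 10 genes, all tested. With genotype under shSCR 5 rose and none fell, with a median of 0.93, against 0.00 over all genes; the smallest p were for Khk, ketohexokinase (1.07), Pklr (1.35), Tkfc, triokinase (1.16), and the arrestin-like gene Arrdc4 (0.996), with adjusted p of 6.03e-08, 8.68e-07, 1.07e-05 and 0.00335. Under shChREBP 4 rose and 1 fell, led by Pklr, Tkfc (1.49, adjusted p = 7.04e-08), Khk (0.71, adjusted p = 6.23e-05) and the hepatokine gene Fgf21 (2.09, adjusted p = 0.00137). With shChREBP in L-G6pc-/- livers Khk, Mlxipl and Pklr fell (Khk -0.82, adjusted p = 9.02e-06), whereas Fgf21 was higher (1.54, adjusted p = 0.0142). Khk, Mlxipl and Pklr fell in L-G6pc+/+ livers as well (Khk -0.46, adjusted p = 0.0167). The list as a whole did not fall there. Its median for shChREBP was 0.28 in L-G6pc+/+ and -0.20 in L-G6pc-/- livers, against 0.03 and 0.01 over all genes.

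Between shChREBP/L-G6pc-/- and shSCR/L-G6pc+/+ livers, where 13.2% of all genes passed, Gpi1 was higher (1.09), and 2 of 11 glycolytic genes passed (Pklr at 0.77 and Pdk1 at -0.58). Of the substrate list 4 of 29 passed, with Mdh2 higher (0.45) and Slc38a4, an amino acid transporter gene (-0.61), Prodh (-0.62) and Gpt (-0.44) lower. Of the hormone list 4 of 32 passed, with Sik1 (1.63) and Irs2, an insulin receptor substrate (1.24), higher and Nr3c1 (-0.44) and Gcgr, the glucagon receptor (-0.32), lower. In the glucose-sensing list 5 were higher, led by Tkfc (1.20), Fgf21 (2.39) and Pklr, and Mlxipl was lower (-0.47). The adjusted p of these named genes ran from 8.77e-08 for Gpi1 to 0.0262 for Irs2. With all libraries, no gene of the glycolytic, substrate, hormone and glucose-sensing lists passed for the interaction, and neither did Slc2a2 or Gpi1.

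Without s29, s30, s32 and s33, the counts for shChREBP in L-G6pc-/- livers were smaller in all 4 of these lists. They were 2 in place of 4 for the glycolytic genes, 1 in place of 2 for substrate entry, 0 in place of 1 for hormonal control and 1 in place of 4 for the glucose-sensing list, and Gpi1 still passed. Over all genes the calls fell to 106, against 770 with all libraries. Of the genes named for that comparison, those that no longer passed were Pdha1 and Pklr (-0.38, adjusted p = 0.359), Ldha, Cebpa, Mlxipl, Fgf21 and Slc2a2.

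For genotype under shChREBP without the 4 libraries, 3 in place of 6 of the substrate list and 6 in place of 8 of the hormone list passed. Of the genes named above Mdh2, Aqp9 and Ep300 did not pass. The hormone list then had 4 higher and 2 lower genes, in place of 2 higher and 6 lower. Calls rose to 2 from 1 in the glycolytic list, where Pdha1 passed (0.30, adjusted p = 0.0388). They rose to 6 from 5 in the glucose-sensing list, where Mlxipl passed (0.38, adjusted p = 0.0138). Over all genes 913 passed, against 1124 with all libraries. For shChREBP/L-G6pc-/- over shSCR/L-G6pc+/+ livers the counts were 1 in place of 2 for the glycolytic list, 1 in place of 4 for the substrate list, 2 in place of 4 for the hormone list and 5 in place of 6 for the glucose-sensing list. The calls lost there were those of Pdk1, Mdh2, Slc38a4, Gpt, Nr3c1, Gcgr and Mlxipl. For the interaction without the 4 libraries, Akt2 of the hormone list passed with a positive log2 difference, beside 37 of 10399 genes tested.

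**Figure D4:**
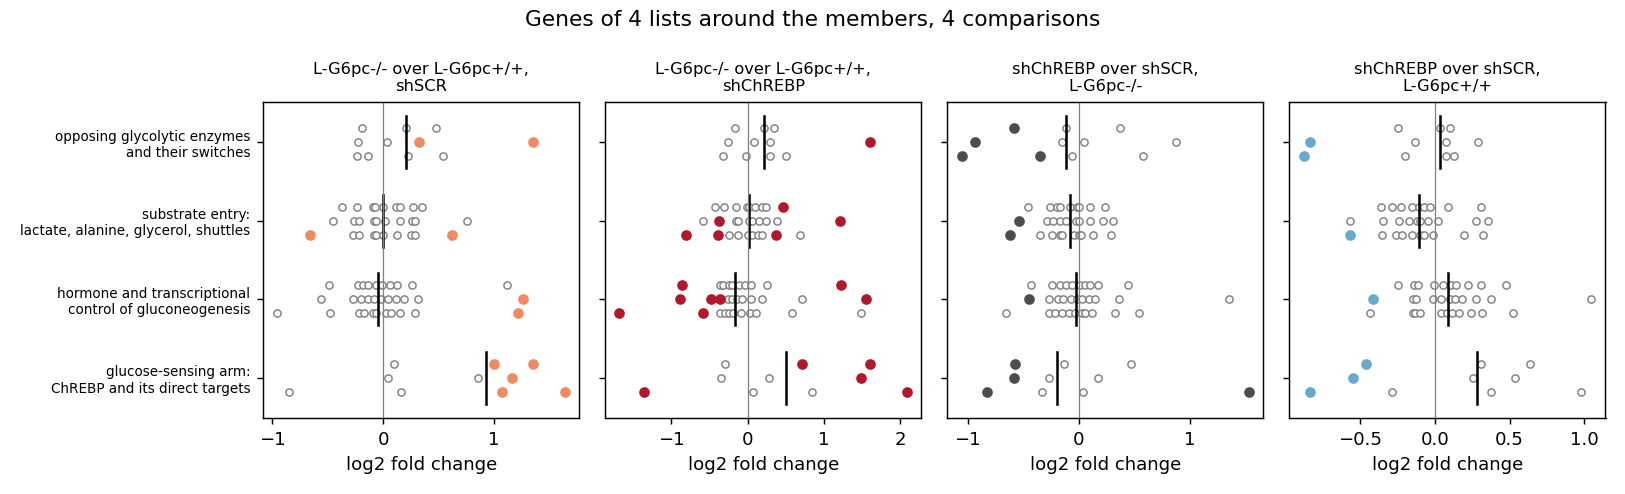
Log2 fold change (x axis) of each tested gene of 4 lists (rows) in 4 comparisons (panels, each with its own x range); filled points have an adjusted p under 0.05 and the black bar is the list's median. The glucose-sensing list has a median of 0.93 for genotype under shSCR, whereas the substrate and hormone lists lie near 0.

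The genes whose levels were most like those of each member over the 33 libraries were found by Pearson's r of log2 CPM, as a description without a test, since libraries share group, depth and scaling. Fbp1 was most like Elovl6, a fatty acid elongase (r = 0.92), and Apoa4, an apolipoprotein (0.92). Slc37a4 was most like the lipogenic genes Scd1 (0.86) and Acly (0.85) and the lipid transporter gene Mfsd2a (0.86). G6pc was most like the mitochondrial carrier genes Slc25a25 (0.82) and Slc25a51 (0.79) and the basic helix-loop-helix repressor gene Bhlhe40 (0.72), and Pck1 was most like Ndufa4 (0.81) and the carriers Slc25a22 (0.76) and Slc25a5 (0.76). Pcx was most like Agpat3 (0.78), Ralgapa2 (0.77) and Cyb5r3 (0.74). For Pck2 no r was above 0.63 (Fbxw11).

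After subtraction of the group means, which removes the differences between groups, G6pc was again most like Slc25a25 (r = 0.90), and Slc37a4 was most like Mfsd2a (0.77). Pck1 was most like Ndufa4 (0.77), Tedc2 (0.76) and Klf15, a transcription factor of amino acid use in gluconeogenesis (0.76). The neighbours of Fbp1 were different ones, Lman2 (0.83), Mrpl36 (0.66) and Sord (0.66), and those of Pcx were Col18a1, Uqcrh and Phpt1 (0.77 each). Among the members themselves, G6pc and Pck1 had r = 0.55 within groups, Pck1 and Slc37a4 0.57 and G6pc and Slc37a4 0.43, whereas Fbp1 had -0.01 with G6pc, 0.11 with Pck1 and 0.38 with Slc37a4. Subtraction of group means leaves the division on the first principal component inside shChREBP/L-G6pc-/-. There s29, s30, s32 and s33 had 1840 to 3598 CPM of Pck1 and 102 to 146 CPM of Slc37a4. The other 5 libraries had 3699 to 6361 and 141 to 185 CPM. The part of this division in the r values was not tested.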

How the data were processed

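Total liver RNA was made into 3′ QuantSeq libraries and sequenced as single reads. Per the labels, the authors used HISAT and SAMtools for alignment to GRCm38 and sorting, took gene totals with HTSeq, and deposited raw counts; versions and the strand setting are not given in the sources used here. The authors also deposited values normalized with voom of limma, which are a linear signal on the scale of CPM, used here only after log2 as an alternative. Members were matched by symbol and Ensembl identifier through GENCODE M21, which named 25817 of 25988 genes. The main analysis used edgeR 4.0.16 (R 4.3.3): filterByExpr (minimum count 10, minimum total 15) kept 10179 genes, TMM scaled the libraries, and one quasi-likelihood model of the 4 groups gave 6 two-sided comparisons with Benjamini-Hochberg adjustment over all genes tested. An adjusted p under 0.05 passed. The counting at 3′ ends gives 1 position per transcript and does not see upstream exons. Correlations used log2 CPM with a prior count of 2. Scripts were tested on simulated data. No library was a copy of another of its group: the lowest chi-square per degree of freedom between libraries of a group was 4.51 over 120 pairs. Libraries of different groups were not compared in this way. Alternatives were other scalings, no filter on low counts, DESeq2 1.42.0, limma 3.58.1, only the groups compared, no Gm42418 (the gene with the most counts in each library), and libraries left out. The members and the 6 pathway and 10 marker lists were chosen with earlier results of these data known. Named genes were the 7 members, Mlxipl and Pklr as a check, up to 4 passing genes with the smallest p of each pathway list, and the 3 genes most like each member; some of these genes, and the summaries of lists that turn on them, are not reported here. Counts of list genes without 4 libraries were added after seeing the data. Sequences are from RefSeq. Libraries are named by the labels' numbers (s1 to s33).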

Additional observations from a re-analysis of the deposited data

Results flagged for a closer look

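Each member was checked in each of the 4 groups for a library far from the others, by the gap to its nearest neighbour over the range of the group. Of 28 sets of values 7 had such a library, where chance gives about 1 in 20. G6pc was low in library s16 of shChREBP/L-G6pc+/+, at 69.1 CPM with the next at 151 CPM. Slc37a4 was high in s12 of the same group, at 163 CPM with the next at 115 CPM, and Pck2 was high in its s15, at 7.10 CPM with the next at 4.77 CPM. Fbp1 was high in s6 of shSCR/L-G6pc+/+, at 478 CPM with the next at 366 CPM. Pck2 was high in s17 of shSCR/L-G6pc-/-, at 7.43 CPM with the next at 3.61 CPM. G6pc3 was low in s24 of shSCR/L-G6pc-/-, at 1.75 CPM with the next at 3.24 CPM, and high in s1 of shSCR/L-G6pc+/+, at 6.70 CPM with the next at 3.70 CPM; both rest on few counts.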

How the results depend on the processing

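Of 1513 refitted fold changes of members, 1434 kept their direction and their side of the threshold, 30 no longer passed, 7 passed newly and 42 changed sign. In the main fit only 7 of 36 values passed, so most of the unchanged refits are of values that did not pass. Many left-out libraries also lay outside the groups compared. The genotype call of Fbp1 held under each alternative run, with log2 fold changes of 0.93 to 1.04 under shSCR and 0.66 to 0.81 under shChREBP. For genotype under shSCR, the count of members passing was 1 with no filter on low counts and with limma on the deposited values, and 1 to 2 with each library left out. For genotype under shChREBP it was 2 with scaling by library size, 3 without s29, s30, s32 and s33, and 1 to 2 with each library left out. For shChREBP in L-G6pc-/- livers it was 1 with scaling by library size and with no filter, 0 without the 4 libraries, and 1 to 2 with each library left out. For shChREBP in L-G6pc+/+ livers it was 0 with only the groups compared and without s9 and s13, and 0 to 1 with each library left out.

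Changes of sign occurred only in values that did not pass, and the cause was not tested. Without the 4 libraries, Pck1 was 0.066 for shChREBP in L-G6pc-/- livers and 0.36 for the interaction, and Slc37a4 was 0.12 for the interaction and 0.055 for shChREBP/L-G6pc-/- over shSCR/L-G6pc+/+. With scaling by library size the interactions were 0.061 for Slc37a4 and 0.037 for Pck1. With limma on the deposited values Pck2 was -0.007 for shChREBP in L-G6pc+/+ livers, and G6pc was -0.013 for shChREBP/L-G6pc-/- over shSCR/L-G6pc+/+ (-0.003 with limma-voom). With each library left out, the range for shChREBP in L-G6pc+/+ livers was -0.136 to 0.091 for Pck2 and -0.032 to 0.077 for Pcx, and that for shChREBP/L-G6pc-/- over shSCR/L-G6pc+/+ was -0.15 to 0.15 for G6pc. For the interaction it was -0.13 to 0.32 for G6pc, -0.118 to 0.059 for Slc37a4 and -0.148 to 0.092 for Pck1.

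Over all genes, calls differed by more than 1.5 times for shChREBP in L-G6pc-/- livers without the 4 libraries (106, against 770) and for shChREBP/L-G6pc-/- over shSCR/L-G6pc+/+ (321, against 1347). The interaction had 8 calls, against 76 with DESeq2, 33 with scaling by library size, 37 without the 4 libraries, 19 without s9 and s13, 3 to 4 with limma and 4 to 16 with each library left out. For shChREBP in L-G6pc+/+ livers calls were 316 to 365 without s2, s3, s11, s15 or s16, against 549. Low counts limit Pck2 and G6pc3. No paired analysis was possible because the groups share no library numbers.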
